A study of Bombus terrestris audax with 20 samples.

Results

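The genes described here are 60 named genes whose transcripts were lowest in late-instar larvae of the bumblebee Bombus terrestris audax. Of 14817 features in the expression table, 451 carry a product name other than uncharacterised in the part of the study's caste gene list that could be read, and 385 of these span less than 100 kb and are no hexamerin, Kr-h1 or cytochrome P450 gene. From these 385 candidates, the 60 with the most negative late value relative to the lower of the early and mid values were taken, on the log2(abundance + 20) scale with both castes weighted equally. Messenger RNA of whole female larvae was sequenced from 6 phenotypes: early-instar queen-destined (EQ) and worker-destined (EW) larvae of the first and second instars, mid-instar queen-destined (MQ) and worker-destined (MW) larvae of the third, and late-instar queen-destined (LQ) and worker-destined (LW) larvae of the fourth. Each phenotype had 3 libraries except MW, which had 2. Each library pooled whole larvae of 1 colony. Queen-destined larvae came from 4 queenless colonies and worker-destined larvae from 3 queenright colonies, so that caste fate and colony condition cannot be told apart. Because larvae were sequenced whole, less tissue of a type and less RNA per cell cannot be told apart either.

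As background, a bumblebee larva grows through the instars fed by workers, and then stops feeding, spins a cocoon and pupates. The study places the main, queen-dependent period of caste determination before the third instar. It describes a later, nutrition-sensitive period, proposed for the fourth, as less strongly supported. Larval body wall muscle, cuticle secreted anew by the epidermis before each moult, and the enzymes and carriers of fat body and gut are large parts of a growing larva. Growth and moulting follow ecdysone and juvenile hormone, which act through transcription factors of the nuclear receptor and other families. Product names in this genome were assigned automatically by similarity, so a name taken from vertebrates or yeast, such as hair cell stereocilia or signaling mucin, tells which protein the sequence resembles and not what it does in the bee.

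The authors divided the deposited abundances by feature length and quantile-normalised them, so they compare genes and libraries on 1 scale but keep no read counts. All libraries had been resampled to 1 total, and the number of reads behind each value is unknown. The late worker-destined library LW1 stood apart from LW2 and LW3. It listed 11 features at 0, against 90 to 153 in the other 5 late libraries and 20 to 53 in the early and mid libraries. Over all features that were at least 0.5 higher on the log2 scale in MW than in the mean of LW2 and LW3, LW1 lay a median 49.7% of the way towards MW. Results that rest on LW1 are therefore given with and without it.

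The stage pattern of the 60 genes was set by the rule and is a description. The late mean minus the lower of the early and mid means, called the late difference here and given in parentheses after each gene, had a median of -0.48 (range -2.47 to -0.20) on the log2 scale, where the median over all 14817 features was 0.06 and over the 385 candidates 0.11. A late value at least as low as the limit of the list occurred in 25.9% of all features, and the list holds those of them that are among the 385 candidates. The late difference was -0.5 or lower in 27 of the 60 genes, against 11.4% of all features, and -1 or lower in 8 of them, against 3.24%.

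Most of the genes were already lower at the mid stage. The mid mean lay below the early mean in 53 of 60, as it did in 45.0% of all features, and the median mid minus early difference was -0.20. In the other 7 genes the mid stage was the highest: protein Skeletor (mid minus early 0.50), estradiol 17-beta-dehydrogenase 11 (0.32), laminin subunit alpha (0.06), protein tilB homolog (0.06), leukocyte tyrosine kinase receptor (0.06), glucose transporter type 1 (0.03) and the nuclear receptor HR38 (0.01). Late larvae thus had the lowest mean of the 3 stages in all 60 by construction, while the highest was the early stage for nearly all of them.

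Library by library, all 6 late libraries lay below all 11 others in 21 of the 60 genes, where 6.08% of all features did so. Without LW1 the count was 38 of 60, against 10.2% of all features. The plot of every gene in every library shows the late block as low throughout, with a lighter column at LW1.

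**Figure D1:**
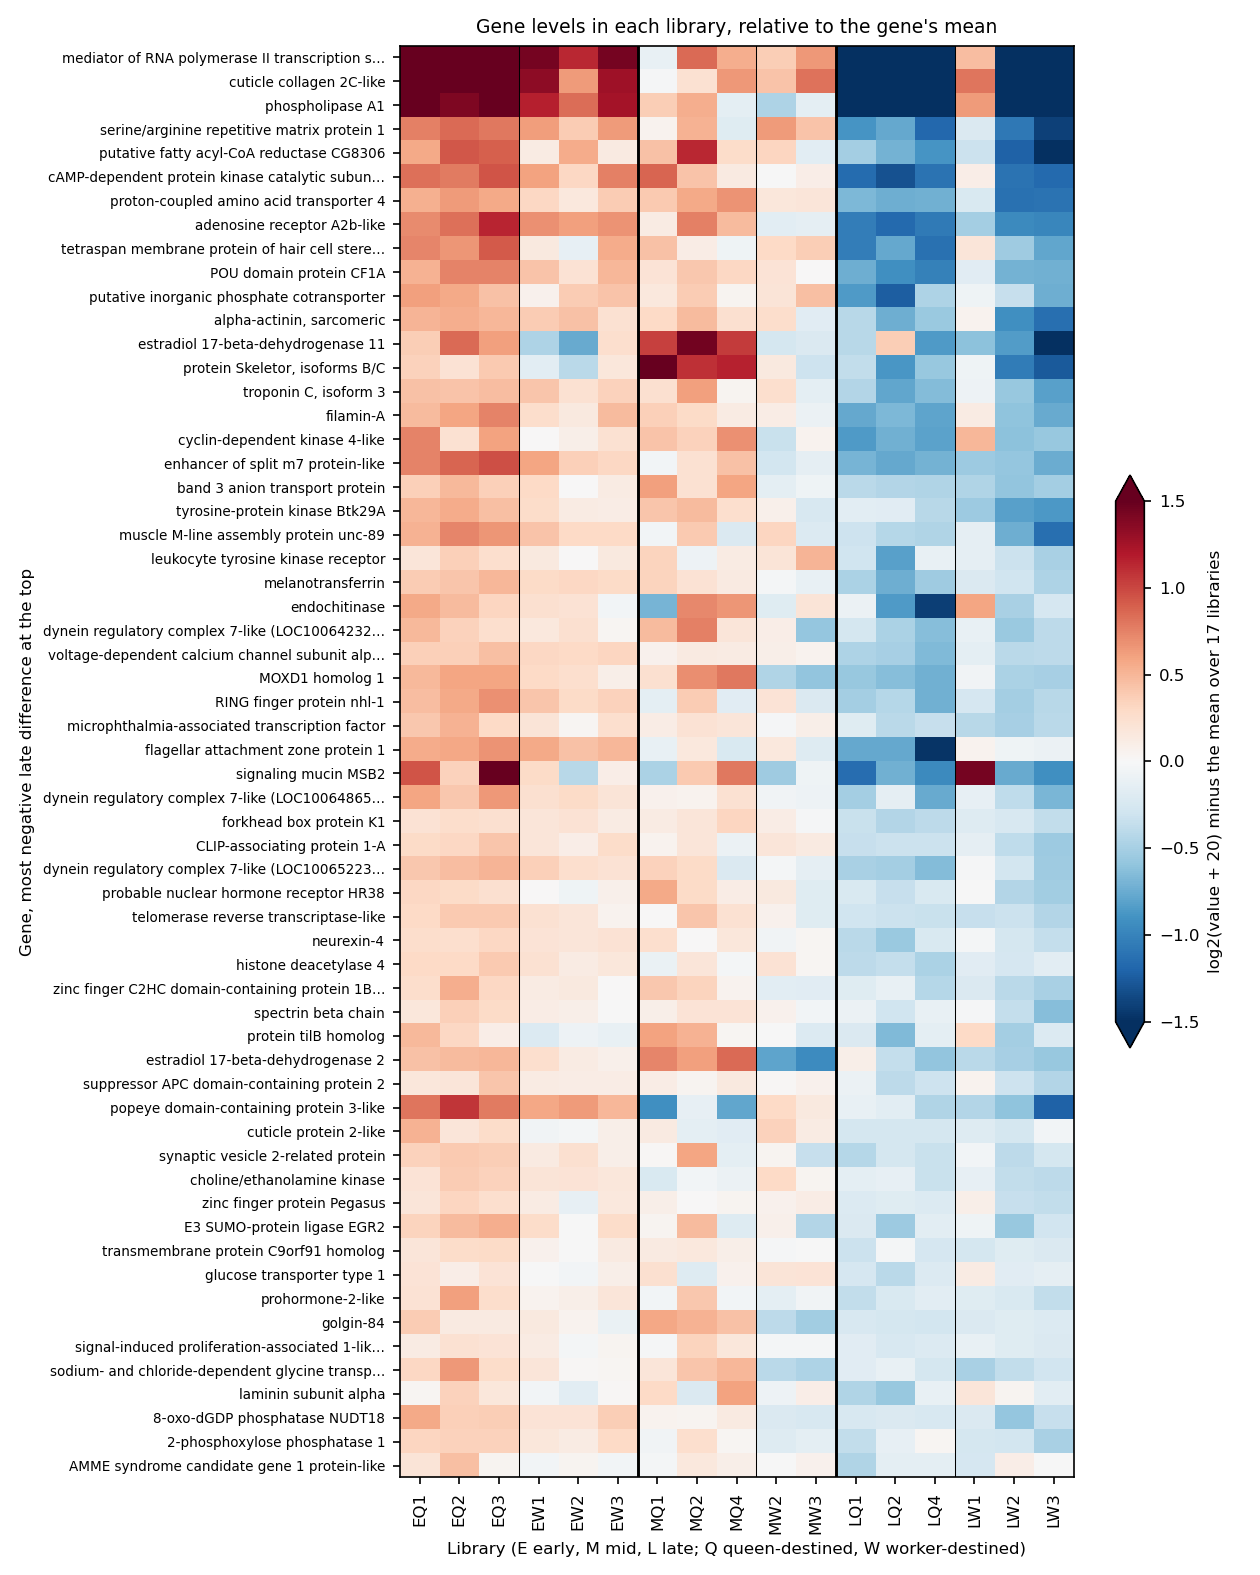
Level of each of the 60 genes (rows, most negative late difference at the top) in each of the 17 libraries (columns), as log2(value + 20) minus the gene's mean over the libraries; red is above and blue below that mean, and the scale stops at 1.5. Early libraries are mostly red and late ones blue, and LW1 is paler than the other 5 late libraries in most rows.

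The largest late difference belonged to a gene named mediator of RNA polymerase II transcription subunit 15, in other species a part of the Mediator complex that links transcription factors to the polymerase. Its abundance was 833, 741 and 1067 in EQ, 623, 503 and 626 in EW, 200.4, 411 and 328 in MQ, 288 and 353 in MW, 25.9, 24.4 and 17.0 in LQ, and 308, 27.4 and 17.8 in LW. Late minus mid was -2.47 and late minus early -3.62. Apart from LW1 at 308, every late library lay far below every mid library, and LW1 lay among the mid values.

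Cuticle collagen 2C-like was close behind (-2.43). Its name comes from a structural collagen of the nematode cuticle, and its gene spans 663 bp. The abundance was 1812, 2176 and 2466 in EQ, 1179, 715 and 1122 in EW, 447, 534 and 723 in MQ, 617 and 813 in MW, 59.6, 94.2 and 25.4 in LQ, and 808, 90.2 and 59.0 in LW. Early means were the highest, although EW2 lay within the mid range, 5 late libraries were low, and LW1 was at the level of MW.

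Phospholipase A1, a lipase that releases a fatty acid from phospholipids, followed (-1.33). It measured 281, 247 and 334 in EQ, 207, 161 and 221 in EW, 111, 128 and 71.4 in MQ, 53.5 and 71.3 in MW, 15.1, 9.44 and 12.0 in LQ, and 138, 12.9 and 2.11 in LW. Here LW1 lay above both MW libraries and the other 5 late libraries were at 15.1 or below, so the late worker mean rests on LW1.

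Serine/arginine repetitive matrix protein 1, in other animals a splicing co-activator, had all late libraries below all others (-1.25). Its abundance was 408, 435 and 418 in EQ, 369, 309 and 373 in EW, 243, 344 and 204 in MQ, 373 and 319.9 in MW, 116, 128 and 91.8 in LQ, and 198, 100.4 and 75.7 in LW. The putative fatty acyl-CoA reductase CG8306, of a family that makes fatty alcohols for waxes and other lipids, likewise separated the late libraries (-1.22): 439.7, 574 and 561 in EQ, 319, 438 and 320.0 in EW, 402, 659 and 357 in MQ, 370.2 and 258 in MW, 198, 170.3 and 148 in LQ, and 229, 114 and 83.4 in LW. In both genes LW1 was the highest late library but stayed under the lowest mid library.

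The kinase gene named cAMP-dependent protein kinase catalytic subunit PRKX measured 168, 162 and 183 in EQ, 141, 111 and 159 in EW, 175, 123 and 96.0 in MQ, 85.5 and 93.9 in MW, 27.5, 22.8 and 29.2 in LQ, and 94.0, 29.1 and 27.3 in LW (-1.22). Proton-coupled amino acid transporter 4, of a family that carries small amino acids across membranes, measured 524, 566 and 536 in EQ, 445, 398 and 469 in EW, 470.3, 535 and 576 in MQ, 400.3 and 405 in MW, 216, 206 and 207 in LQ, and 300.5, 153 and 154 in LW (-1.12). Adenosine receptor A2b-like, named for a receptor of extracellular adenosine, measured 73.9, 81.5 and 107 in EQ, 72.2, 68.2 and 71.4 in EW, 42.7, 76.6 and 60.1 in MQ, 31.4 and 32.3 in MW, 7.88, 5.60 and 7.48 in LQ, and 20.3, 9.65 and 9.15 in LW (-1.10). For the transporter and the receptor no late library reached any earlier library, whereas for PRKX the LW1 value lay beside those of MW.

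**Figure D2:**
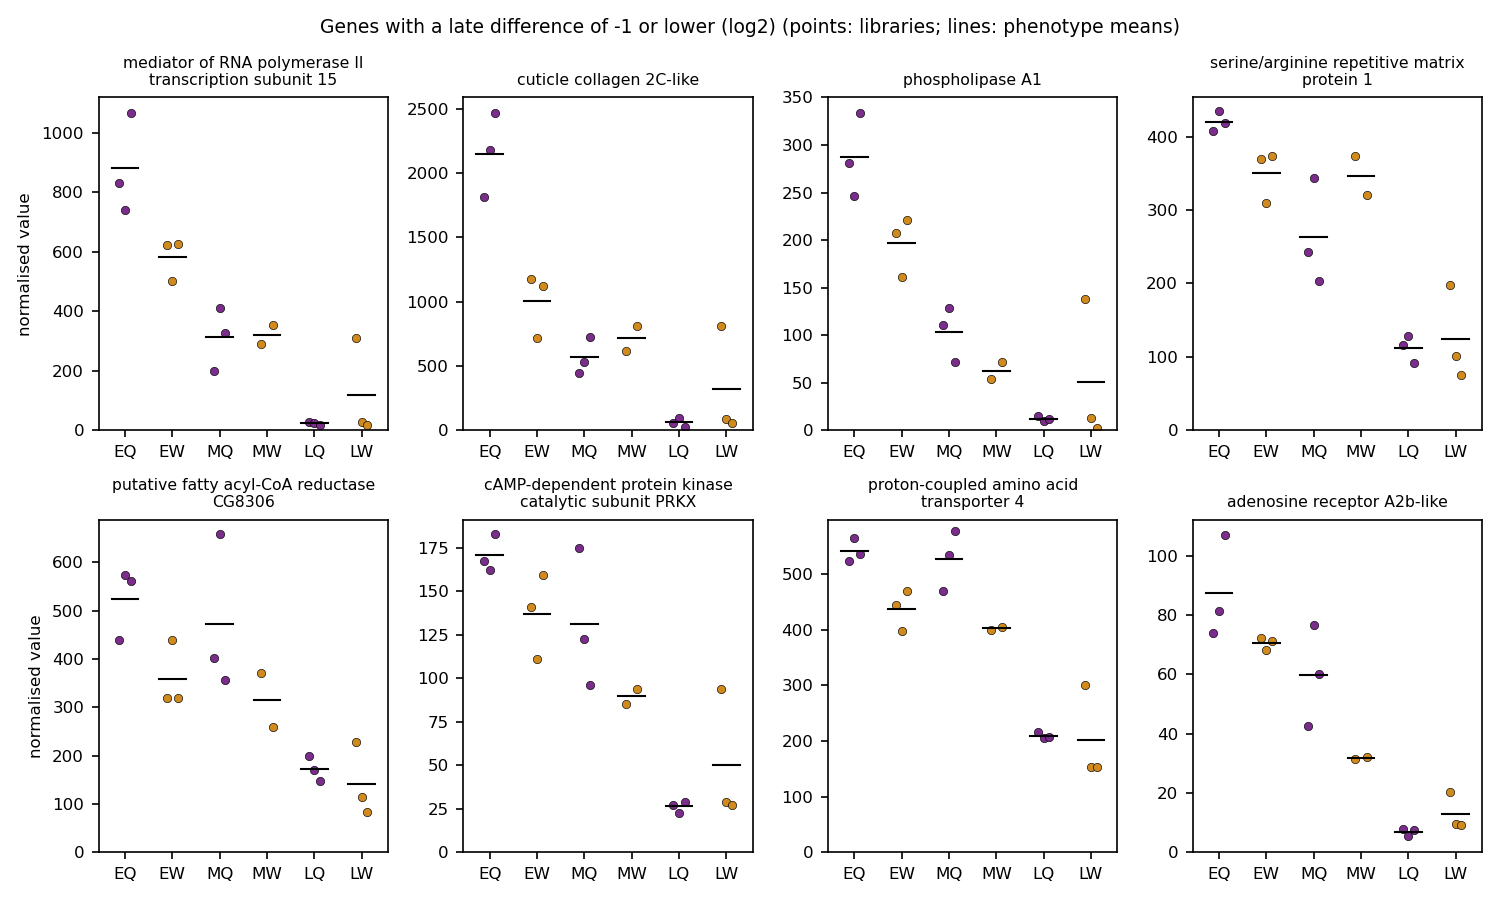
Normalised abundance (vertical axis, linear, from 0) of the 8 genes with a late difference of -1 or lower, in the 6 phenotypes in stage order with queen-destined larvae left of worker-destined larvae; points are libraries and lines are phenotype means. The LQ points sit low and close together in each panel, and the single high LW point in each panel is LW1.

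The remaining genes of the 12 largest late differences came from 3 groups of function. Tetraspan membrane protein of hair cell stereocilia homolog (-0.92) measured 165, 157 and 191 in EQ, 103, 82.3 and 144 in EW, 132, 101 and 87.0 in MQ, 118 and 124 in MW, 34.2, 45.5 and 31.4 in LQ, and 107, 57.2 and 45.3 in LW. POU domain protein CF1A (-0.92), whose Drosophila counterpart is a transcription factor of trachea and neurons, measured 128, 152 and 152 in EQ, 118, 98.8 and 125 in EW, 98.4, 115 and 107 in MQ, 97.8 and 82.9 in MW, 41.6, 34.2 and 30.9 in LQ, and 71.4, 42.7 and 42.1 in LW. No late library of CF1A reached an earlier value, and LW1 was again the highest of the 6.

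Putative inorganic phosphate cotransporter (-0.87) measured 414, 402 and 365 in EQ, 276, 349 and 361 in EW, 297, 349 and 273 in MQ, 305 and 367 in MW, 137, 100.4 and 186 in LQ, and 252, 204 and 150.5 in LW. Alpha-actinin, sarcomeric (-0.81), which anchors the thin filaments of muscle at the Z disc, measured 1235, 1259 and 1221 in EQ, 1120.5, 1174 and 1007 in EW, 1060.6, 1204 and 1015 in MQ, 1039 and 762 in MW, 637, 508 and 576 in LQ, and 893, 445 and 380.2 in LW. Alpha-actinin was abundant at every stage, and of its late libraries only LW1 lay above a mid library.

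Sorted by product name into groups, muscle and cytoskeleton genes made up 12 of the 60 and were taken from 32 such candidates (37.5%). Cuticle, chitin and extracellular matrix genes gave 6 of 18 (33.3%), and enzymes and carriers of small molecules 11 of 44 (25.0%). The cuticle and matrix group includes protein Skeletor and signaling mucin MSB2, which are named for a nuclear and a yeast surface protein. The shares were 21.4% for synapse and secretion genes (3 of 14) and 14.9% for transcription factors (7 of 47), where all candidates together gave 15.6%. Signalling genes (4 of 51), ion channels and transmitter receptors (2 of 25), chromatin and RNA genes (3 of 43), Golgi and vesicle genes (1 of 15) and adhesion genes (1 of 24) each gave smaller shares, and 10 of 72 came from no group. These shares follow from the choice of members and were not tested.

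Among the contractile genes, troponin C, isoform 3 (-0.73), the calcium sensor of the thin filament, measured 1777, 1762 and 1799 in EQ, 1738, 1528 and 1656 in EW, 1541, 2009.9 and 1342 in MQ, 1548 and 1178 in MW, 954, 748 and 824 in LQ, and 1232, 870.1 and 728 in LW. The M-line protein unc-89 (-0.58), a giant kinase of the thick filament lattice, measured 286, 335 and 316 in EQ, 267, 242 and 241 in EW, 188, 259 and 164 in MQ, 247 and 165 in MW, 152, 139 and 136 in LQ, and 174, 108 and 77.3 in LW. Filamin-A (-0.71), which crosslinks actin, was at 50.6 to 56.0 in LQ and at 112, 59.8 and 52.1 in LW, against 94.2 to 136 at mid. For each of these 3 genes LW1 was the late library that overlapped the mid range, and the other 5 lay below it.

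Of a list of 6 muscle markers taken from the names, 3 are members (alpha-actinin, troponin C and unc-89). Titin, too long for the rule, had a late difference of -0.46, troponin T one of -0.06 and the smooth-muscle type protein myophilin one of 0.10, so 5 of the 6 were lower late and myophilin was not. The summed abundance of the list was 3447 to 4012 in the early libraries and 2713 to 4232 in the mid libraries. In the late libraries it was 1624 to 2818, LW1 being the highest. Alpha-actinin and troponin C, which the rule chose for their low late values, made up most of this sum in every library. The lower late sum therefore follows largely from the choice of members. The late decrease of the contractile genes was therefore not shared evenly by every muscle marker.

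Other cytoskeletal members were smaller in their late difference. They were CLIP-associating protein 1-A (-0.45), a microtubule plus-end protein, and spectrin beta chain (-0.34), of the membrane skeleton. A group of 5 genes carry names of cilium or flagellum proteins: dynein regulatory complex subunit 7-like at 3 loci (LOC100642325, -0.52; LOC100648659, -0.46; LOC100652231, -0.44), flagellar attachment zone protein 1 (-0.48) and protein tilB homolog (-0.32), known in Drosophila for the cilia of hearing neurons. In insects motile cilia are found mainly in sperm and in the mechanosensory chordotonal neurons. The pair LOC100642325 and LOC100648659 lie within 3 genes of each other in RefSeq's newer assembly, iyBomTerr1.2, and since reads that matched at several places were kept, the 3 similarly named genes may share reads.

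Among the cuticle and matrix genes, endochitinase, an enzyme that degrades chitin at the moult, measured 1045, 974 and 874 in EQ, 829.5, 815 and 676 in EW, 420.4, 1160.1 and 1111 in MQ, 614 and 801 in MW, 654, 378 and 250.1 in LQ, and 1064, 492 and 581 in LW (-0.53). Its MQ1 value lay under 4 late values and its LW1 value above both MW values, so its stages overlap. Signaling mucin MSB2 (-0.48), named for a yeast surface protein, was between 10.9 and 21.1 in 5 late libraries and 164 in LW1. Cuticle protein 2-like (-0.31) was near the floor, with 0 in LQ1, LQ2, LQ4 and LW2, 1.01 in LW1 and 3.29 in LW3, and only 3.09 to 14.6 in early larvae.

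Protein Skeletor, isoforms B/C (-0.79), named for a Drosophila nuclear protein, had its highest values at mid in MQ. Laminin subunit alpha (-0.24), of the basement membrane, was 318, 291 and 408 in LQ and 505, 454 and 392 in LW, against 547, 378 and 681 in MQ and 418 and 474 in MW. The 5 listed markers of epidermis and cuticle summed to 1684 to 3649 in the early libraries and to 1258 to 2056 in the mid libraries. They summed to 491 to 999 in the late libraries other than LW1 and to 2180 in LW1. Cuticle collagen 2C-like and endochitinase, chosen by the rule for low late values, made up most of each sum, so the lower late sums follow largely from that choice. Laccase-4-like overlapped between the stages, at 147.9 to 342.5 early, 217.5 to 381.5 at mid and 182.7 to 304.9 late. Of these 5 markers, cuticle collagen 2C-like, cuticle protein 2-like and endochitinase are members, laccase-4-like had a late difference of -0.11 and grainyhead one of 0.02.

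Among the enzymes and carriers not yet named, melanotransferrin (-0.53), an iron-binding protein of the transferrin family, had all late libraries below all earlier ones. Band 3 anion transport protein (-0.66), a bicarbonate and chloride exchanger, measured 48.8, 55.3 and 48.9 in EQ, 46.5, 34.2 and 38.9 in EW, 62.7, 43.0 and 61.0 in MQ, 28.7 and 31.6 in MW, 20.8, 19.9 and 19.3 in LQ, and 19.3, 15.9 and 17.9 in LW. In band 3 the late libraries lay close together, LW1 included, and below all earlier ones. MOXD1 homolog 1 (-0.52), named for a copper monooxygenase, choline/ethanolamine kinase (-0.27), of phospholipid synthesis, and glucose transporter type 1 (-0.26) completed the group with the 2 estradiol 17-beta-dehydrogenases, short-chain dehydrogenases that in vertebrates act on steroids and other lipids (type 11, -0.80; type 2, -0.32).

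Of the 7 transcription factors, enhancer of split m7 protein-like (-0.68), a basic helix-loop-helix repressor that answers Notch in Drosophila, measured 302, 334 and 358 in EQ, 271, 227 and 219 in EW, 168, 205 and 243 in MQ, 139 and 155 in MW, 98.6, 93.2 and 97.8 in LQ, and 112, 109 and 94.8 in LW. Every late library lay below every earlier one, and the 6 late values were close together in both castes. Microphthalmia-associated transcription factor (-0.48) was at 121, 101 and 107 in LQ and 100.1, 93.5 and 101 in LW, against 138 to 166 at mid. Forkhead box protein K1 (-0.45) was at 163 to 177 in LQ and 172 to 196 in LW, against 224 to 290.4 at mid. LW1 exceeded the mean of LW2 and LW3 by only 0.12 on the log2 scale for the m7-like gene and 0.03 for the microphthalmia factor.

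Nuclear receptor HR38 (-0.44), which in Drosophila pairs with the ecdysone receptor's partner USP, was rare throughout: 22.4, 21.9 and 20.4 in EQ, 14.5, 12.7 and 16.1 in EW, 30.9, 21.8 and 16.9 in MQ, 18.0 and 10.3 in MW, 9.17, 6.91 and 9.19 in LQ, and 14.2, 5.34 and 3.82 in LW. At such levels the offset of 20 shrinks differences. Zinc finger protein Pegasus and E3 SUMO-protein ligase EGR2, named for a vertebrate zinc finger factor, each had a late difference of -0.27.

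The kinases and receptors were cyclin-dependent kinase 4-like (-0.68), of the cell cycle, tyrosine-protein kinase Btk29A (-0.64), a cytoplasmic kinase of actin organisation in Drosophila, and leukocyte tyrosine kinase receptor (-0.54), beside PRKX. Cyclin-dependent kinase 4-like was at 19.2, 22.6 and 20.3 in LQ and 79.5, 25.9 and 27.3 in LW, against 74.5, 69.3 and 92.8 in MQ and 35.9 and 53.2 in MW. Its LW1 value was above both MW libraries. The calcium channel subunit alpha-2/delta-3 (-0.52), which helps deliver voltage-gated channels to synapses, was at 40.2, 39.0 and 32.7 in LQ and 55.0, 43.0 and 43.6 in LW, against 66.4 to 71.6 at mid, with no overlap between the stages.

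Of the genes of chromatin and protein turnover, RING finger protein nhl-1 (-0.48), named for a ubiquitin ligase, and histone deacetylase 4 (-0.37) had all late libraries below all others. The nervous system list gave 1 member of 8, neurexin-4 (-0.37), which in Drosophila builds septate junctions of glia and epithelia. The summed abundance of this list was 263 to 296 early, 228 to 276 at mid and 227 to 250.0 late. Late sums thus lay below all early sums, and both overlapped the mid range. Neurexin-4, chosen by the rule for its low late value, was at 159 to 175 early and 86.9 to 134 late. Of the 8 listed genes 2 were lower late, the other being high-affinity choline transporter 1 (-0.03). The rest ran from 0.02 for ELAV-like protein 2 to 0.36 for calcium-dependent secretion activator. In the synapse group, synaptic vesicle 2-related protein had a late difference of -0.30, prohormone-2-like, a neuropeptide precursor, one of -0.26 and the glycine transporter 1-like gene one of -0.25. None of the 5 gut digestion markers is a member. Their late differences were -0.04 for trypsin 3A1-like, -0.09 for aminopeptidase N, 0.15 for chymotrypsin-1-like, 0.55 for carboxypeptidase B-like and 2.56 for chymotrypsin-2-like, and their summed abundance overlapped between the stages, at 60764 to 116570 early, 45622 to 123412.5 at mid and 45422 to 127019 late.

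The 10 genes outside any group were serine/arginine repetitive matrix protein 1, described above, telomerase reverse transcriptase-like (-0.42), zinc finger C2HC domain-containing protein 1B-like (-0.35), suppressor APC domain-containing protein 2 (-0.32), popeye domain-containing protein 3-like (-0.31), transmembrane protein C9orf91 homolog (-0.27), signal-induced proliferation-associated 1-like protein 1 (-0.26), 8-oxo-dGDP phosphatase NUDT18 (-0.23), 2-phosphoxylose phosphatase 1 (-0.20) and AMME syndrome candidate gene 1 protein-like (-0.20). The last 3 stand just inside the limit. Golgin-84 (-0.26) was the single member of the Golgi and vesicle group. Just outside it were transmembrane protein 145-like (-0.19), retinol dehydrogenase 12-like (-0.19) and serum response factor homolog (-0.19), so the limit falls in a continuous range.

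The late worker-destined library LW1 was the highest of the 3 LW libraries in 52 of the 60 genes, as in 30.1% of all features, and the highest of all 6 late libraries in 42 of 60, as in 18.2% of all features. It exceeded the mean of LW2 and LW3 by a median of 0.36 on the log2 scale, where the median over all features was -0.08. In the 24 genes that were at least 0.5 higher in MW than in LW2 and LW3, LW1 lay a median 76.6% of the way to MW (quartiles 55.5% and 100.5%). LW1 exceeded the other LW libraries by 3.15 for cuticle collagen 2C-like, 2.96 for mediator subunit 15, 2.55 for phospholipase A1 and 2.27 for signaling mucin MSB2.

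The plot of LW1 against MW shows these distances beside those of the LQ libraries. With LW1 left out, the rule kept 57 of the 60 genes and the median late difference was -0.52. What set LW1 apart was not tested. MW1, from the same colony, was not used here, since the study had removed it for poor clustering with its replicates.

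**Figure D3:**
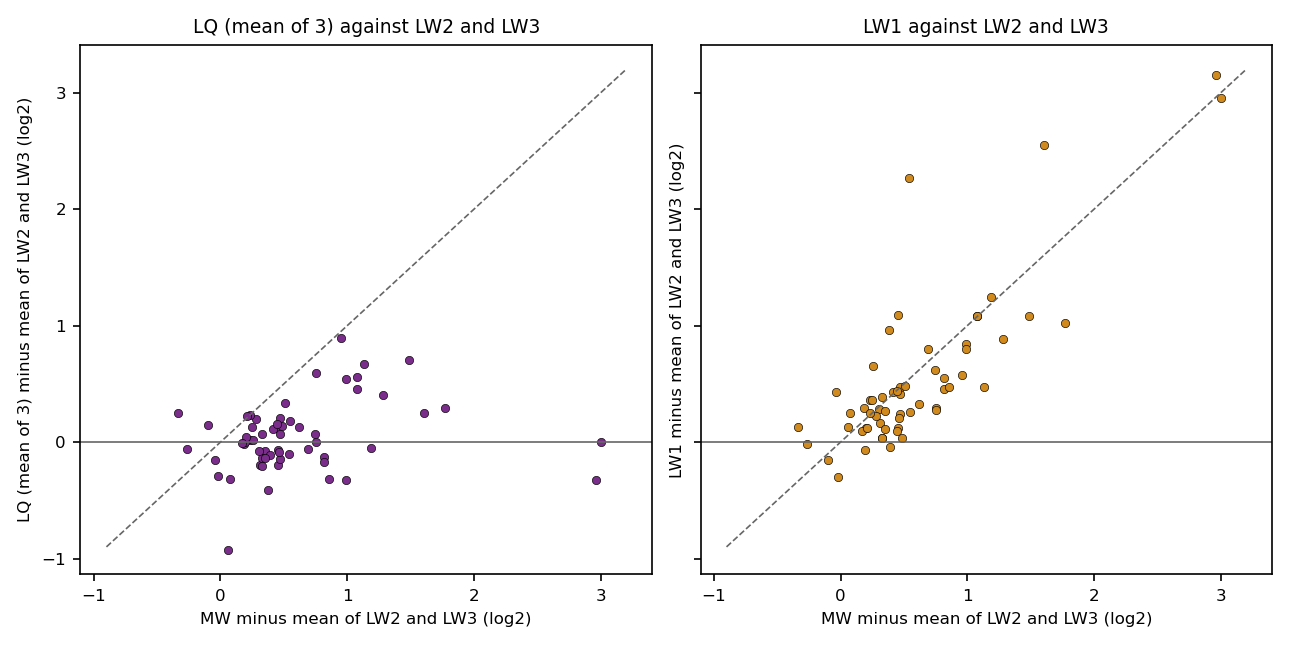
Each point is 1 of the 60 genes; the horizontal axis is MW minus the mean of LW2 and LW3 and the vertical axis is the mean of the LQ libraries (left) or LW1 (right) minus the same mean, all as log2(value + 20). The dashed line marks equality with MW and the solid line equality with LW2 and LW3; the LW1 points follow the dashed line for many genes, and the LQ points lie nearer to the solid line.

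The study's record of collected larvae gives the colony of each library, and same-numbered libraries of 1 caste came from 1 colony. The genes were selected on averages over these same libraries, so the counts within colonies are a description. Within colonies that gave both stages, late larvae were lower than mid larvae in 57 of 60 genes for LQ1 against MQ1, in all 60 for LQ2 against MQ2, in 57 for LQ4 against MQ4, in 55 for LW2 against MW2 and in 52 for LW3 against MW3. Between 46.4% and 51.0% of all features were lower in these same comparisons. LW1 was lower than EW1 of its colony in 52 of 60, with a median of -0.36, whereas LW2 and LW3 were lower than their early libraries in 58 and 59.

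The late minus mid difference, which the rule also used, was unequal between the castes. It had a median of -0.64 in queen-destined larvae (LQ minus MQ, below 0 in 59 of 60 genes) and of -0.32 in worker-destined larvae (LW minus MW, below 0 in 54). Without LW1 the worker median was -0.46, with 55 genes below 0. Of all features, 51.1% were below 0 in queen-destined larvae, 48.7% in worker-destined larvae and 47.0% in the latter without LW1. Among the other 325 candidates these shares were 29.2%, 19.1% and 16.0%.

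Unannotated transcripts within 5 kb of a member are separate features, built by the authors from reads outside annotated genes, and the rule did not use them. There were 22 beside 12 of the members, and 18 of them were lower late than at both earlier stages, against 59.0% of all 4812 unannotated transcripts. Their median late difference was -0.32, and that of all unannotated transcripts was -0.10. The 3 beside the fatty acyl-CoA reductase had late differences of -1.18, -1.27 and -1.21, near the gene's own -1.22, and those beside band 3 had -1.08, -1.09 and -0.71. A transcript 108 bp from EGR2 had -1.01 where EGR2 itself had -0.27, and a transcript 213 bp from the glycine transporter had -0.96 where the gene had -0.25. A second transcript beside each gene had -0.04 for EGR2 and 0.58 for the glycine transporter. Whether these stretches belong to the neighbouring genes was not tested here. The study treated the transcript 737 bp from estradiol 17-beta-dehydrogenase 11 as part of that gene. Its late difference was 0.39, where the gene had -0.80.

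The caste comparison asks whether these genes differed between larvae on the queen and worker pathways. At the early stage it cannot be asked of these genes, because the list that names them was ordered by EQ over EW: in 53 of the 60 no EW library reached the lowest EQ library, as in 75.1% of the candidates and in 5.51% of all features. At the mid and late stages limma, a linear model fitted to all features and all 17 libraries with Benjamini-Hochberg adjusted p-values, gave the tests below. Named genes as a whole leaned to the queen side, so the other 325 candidates are given beside the 60. The rule averaged the castes, so a gene high in MQ alone could enter the list. Results that use MQ are therefore not fully independent of the choice of members.

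At the mid stage 9 of the 60 genes differed between castes, 8 of them higher in MQ (4.72% of all features were called in that direction) and 1 higher in MW (3.31%). Of the other 325 candidates 57 (17.5%) were called higher in MQ, a larger share than the 13.3% of the 60, and 3 higher in MW. The median MQ minus MW difference was 0.22, against 0.13 in the other candidates and 0.04 over all features. The 8 higher in MQ were the 2 estradiol 17-beta-dehydrogenases, golgin-84, MOXD1, the glycine transporter, band 3, Skeletor and Btk29A. Popeye domain-containing protein 3-like, of a family of cAMP-binding membrane proteins of muscle in vertebrates, was the gene higher in MW. At an unadjusted p under 0.05 there were 20 of the 60 (33.3%), against 37.5% of the other candidates and 24.7% of all features.

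Estradiol 17-beta-dehydrogenase 2 had the largest of these differences. It measured 579, 533 and 628 in MQ, against 187 and 167 in MW, a difference of 1.61 ± 0.15 (SE; limma adjusted p = 0.000378). Worker-destined larvae were thus lower than queen-destined larvae of the same stage and also lower than late larvae, which measured 363, 262 and 219 in LQ and 252, 235 and 222 in LW. Late libraries overlapped between castes.

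Golgin-84, a tether of Golgi membranes, measured 180.2, 172 and 160.5 in MQ, against 81.4 and 73.0 in MW, a difference of 0.97 ± 0.10 (limma adjusted p = 0.000378). In late larvae it measured 93.5, 91.1 and 90.6 in LQ, against 95.3, 97.9 and 95.6 in LW, with each LQ library below each LW library, and the fitted difference was -0.06 ± 0.09. Of the 15 Golgi and vesicle candidates 8 were higher in MQ and none higher in MW. Golgin-84 is the only one of the 15 that is a member.

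MOXD1 homolog 1 measured 119, 172 and 184 in MQ, against 66.3 and 58.4 in MW (1.10 ± 0.16, limma adjusted p = 0.00291). The glycine transporter 1-like gene measured 19.4, 26.3 and 29.1 in MQ, against 6.29 and 5.21 in MW (0.80 ± 0.12, limma adjusted p = 0.00244). These genes and the foregoing pair kept an adjusted p under 0.05 whichever of the 17 libraries was left out. When each stage was fitted alone, which leaves 5 libraries, golgin-84 had an adjusted p of 0.0766, MOXD1 0.103 and the glycine transporter 0.0806, and of the 9 calls estradiol 17-beta-dehydrogenase 2 alone was kept (0.0315).

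The other 5 calls were less stable. Skeletor measured 797, 581 and 607 in MQ, against 293 and 207 in MW (1.34 ± 0.30, limma adjusted p = 0.0176), and the call was lost without MQ1, MW2 or MW3. Estradiol 17-beta-dehydrogenase 11 measured 282, 386 and 289 in MQ, against 104 and 108 in MW (1.41 ± 0.36, limma adjusted p = 0.0334), and lost its call without any 1 of the 5 mid libraries. In both genes each MQ library was nonetheless above each MW library.

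Band 3 measured 62.7, 43.0 and 61.0 in MQ, against 28.7 and 31.6 in MW (0.58 ± 0.12, limma adjusted p = 0.0115), and the call was lost without MW2 or MW3. Btk29A (0.46 ± 0.13, limma adjusted p = 0.0447) measured 318, 332 and 281 in MQ, against 247 and 194 in MW. Popeye domain-containing protein 3-like (-0.83 ± 0.24, limma adjusted p = 0.0486) measured 281, 505 and 311 in MQ, against 679 and 612 in MW. For Btk29A and the popeye gene the adjusted p was near the threshold, and each call was lost when any of 14 libraries was left out.

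Without LW1, 14 of the 60 genes passed at mid, 13 of them higher in MQ (6.05% of all features) and 1 higher in MW (4.28%). The genes added were proton-coupled amino acid transporter 4 (0.37 ± 0.09, limma adjusted p = 0.0277, against 0.282 with LW1), cyclin-dependent kinase 4-like (0.62 ± 0.16, limma adjusted p = 0.0304, against 0.178), adenosine receptor A2b-like (0.60 ± 0.16, limma adjusted p = 0.0333), a dynein regulatory complex subunit 7-like gene (LOC100642325; 0.71 ± 0.20, limma adjusted p = 0.0440) and zinc finger C2HC domain-containing protein 1B-like (0.43 ± 0.12, limma adjusted p = 0.0483). Their MQ minus MW differences do not use LW1. The standard error, which all phenotypes share, was 0.20 with LW1 and 0.09 without it for the amino acid transporter, and 0.27 and 0.16 for the kinase.

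At the late stage 2 of the 60 genes differed between castes, 1 in each direction, where 3.21% of all features were called higher in LQ and 1.34% higher in LW. Of the other candidates 20 were called higher in LQ and 2 higher in LW. At an unadjusted p under 0.05 there were 12 of the 60 (20.0%), against 30.5% of the other candidates and 21.4% of all features. Flagellar attachment zone protein 1 measured 74.7, 74.6 and 38.4 in LQ, against 148, 135 and 132 in LW, a difference of -0.97 ± 0.17 (limma adjusted p = 0.00643). At mid it had measured 130, 160 and 118 in MQ, against 159.8 and 121 in MW, with full overlap. Late worker-destined larvae thus stayed within the mid range and late queen-destined larvae lay below it, and the call held without any 1 library.

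Btk29A measured 207, 204 and 170.2 in LQ, against 154, 124 and 119.9 in LW, a difference of 0.49 ± 0.12 (limma adjusted p = 0.0290). It was the gene called at both stages, with every queen-destined library above every worker-destined library of its stage. The late call was lost without LQ1, LQ2, LW2 or LW3. Without LW1 the difference was 0.59, and 3 genes passed, 2 higher in LQ (1.89% of all features) and 1 higher in LW (1.36%). The gene added was proton-coupled amino acid transporter 4, at 216, 206 and 207 in LQ, against 153 and 154 in LW2 and LW3 (0.40 ± 0.09, limma adjusted p = 0.0327, against 0.773 with LW1).

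The late caste balance of the whole list depended on LW1. With all libraries LQ was lower than LW in 36 of 60 genes and the median LQ minus LW difference was -0.09, against 0.07 in the other candidates. Without LW1, LQ was lower in 28 of 60 and the median was 0.01. Genes whose LQ minus LW difference changed sign were phospholipase A1 (-0.60 with LW1, 0.25 without), serine/arginine repetitive matrix protein 1 (-0.05 and 0.29), troponin C (-0.13 and 0.07) and 5 others. Cuticle collagen 2C-like had an LQ minus LW difference of -1.38 ± 0.65 (limma adjusted p = 0.239), and its LQ libraries at 59.6, 94.2 and 25.4 overlapped LW2 and LW3 at 90.2 and 59.0.

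**Figure D4:**
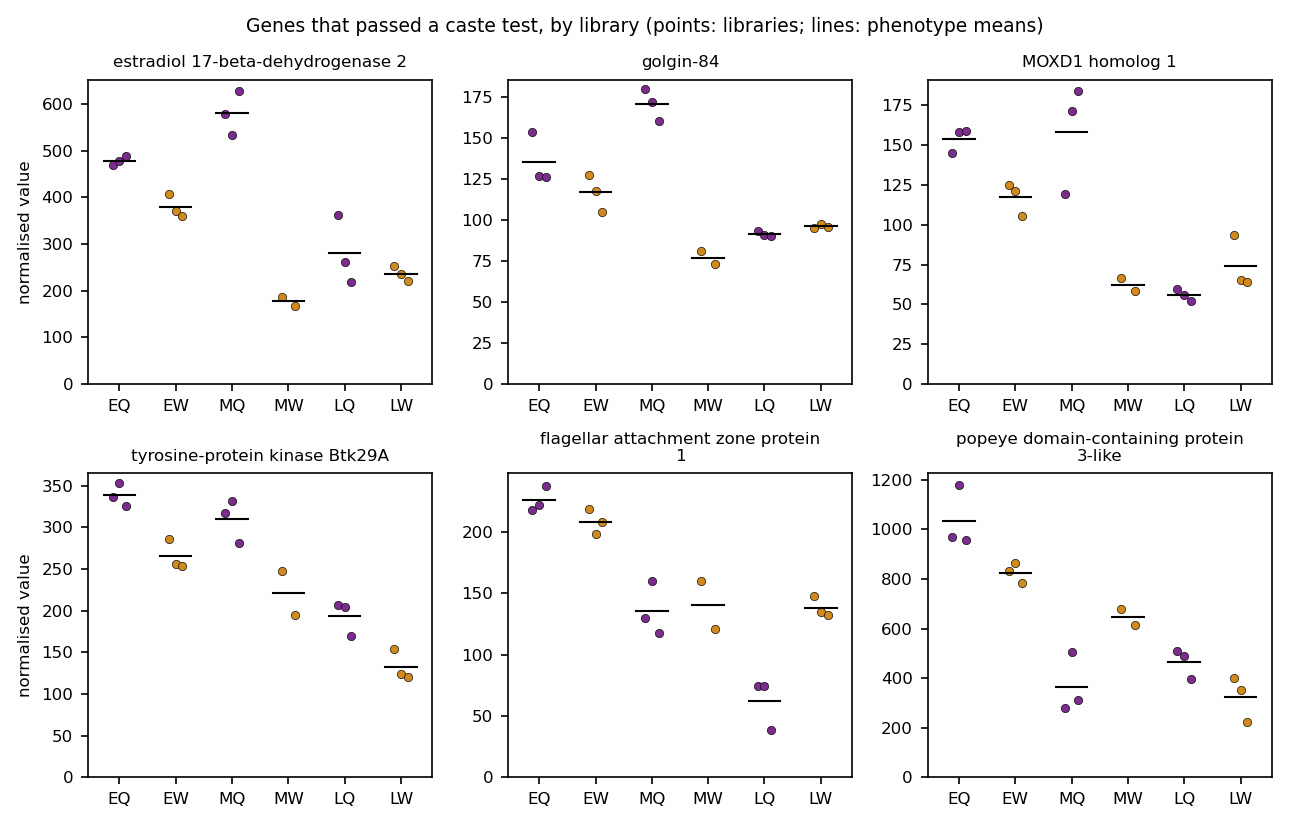
Normalised abundance (vertical axis, linear, from 0) of 6 genes that passed a caste test, in the 6 phenotypes in stage order with queen-destined larvae left of worker-destined larvae; points are libraries and lines are phenotype means. In estradiol 17-beta-dehydrogenase 2, golgin-84 and MOXD1 the MQ points lie far above the MW points, while at late the LQ and LW points overlap for the dehydrogenase and the LQ points lie below the LW points for golgin-84 and MOXD1, Btk29A separates them at mid and late, and flagellar attachment zone protein 1 separates them at late only.

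The change of the caste difference between the stages, (LQ minus LW) minus (MQ minus MW), asks whether the late minus mid difference was unequal between the pathways. It had a median of -0.29 over the 60 genes, -0.04 over the other candidates and -0.02 over all features, and without LW1 the median over the 60 was -0.18. It was called for 5 of the 60 genes, 4 with a lower late minus mid difference in queen-destined larvae (1.05% of all features) and 1 in the other direction (1.42%), where 9 and 4 of the other 325 candidates were called. At an unadjusted p under 0.05 there were 20 of the 60 (33.3%), against 21.2% of the other candidates and 18.6% of all features. Since high MQ values could bring a gene into the list, the larger share among the 60 follows in part from their choice.

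Golgin-84 had a change of -1.03 ± 0.14 (limma adjusted p = 0.00428), estradiol 17-beta-dehydrogenase 2 of -1.40 ± 0.20 (limma adjusted p = 0.00561) and MOXD1 of -1.40 ± 0.22 (limma adjusted p = 0.0105). In these 3 genes queen-destined larvae had high mid and lower late values, while the worker-destined mean was higher at late than at mid: 96.3 in LW and 77.2 in MW for golgin-84, 236 in LW and 177 in MW for estradiol 17-beta-dehydrogenase 2, and 74.3 in LW and 62.4 in MW for MOXD1. These 3 genes thus entered the list through their high MQ values, and their calls are not independent of that choice. Golgin-84 and estradiol 17-beta-dehydrogenase 2 held without any 1 library, and MOXD1 was lost without MW3. For MOXD1 the higher LW mean rests on LW1 at 93.7, with LW2 and LW3 at 65.2 and 63.9 beside MW at 66.3 and 58.4.

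Melanotransferrin measured 198, 163 and 190.5 in LQ, against 242, 227 and 200.5 in LW, and 363, 334 and 314 in MQ, against 278 and 261 in MW, a change of -0.56 ± 0.13 (limma adjusted p = 0.0463). Popeye domain-containing protein 3-like measured 509, 491 and 395 in LQ, against 399, 354 and 225 in LW, a change of 1.34 ± 0.32 (limma adjusted p = 0.0452) with the caste order turned round from mid. Each of these 2 calls was lost when any of 15 libraries was left out. For melanotransferrin LW1 was among them (limma adjusted p = 0.0600).

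**Figure D5:**
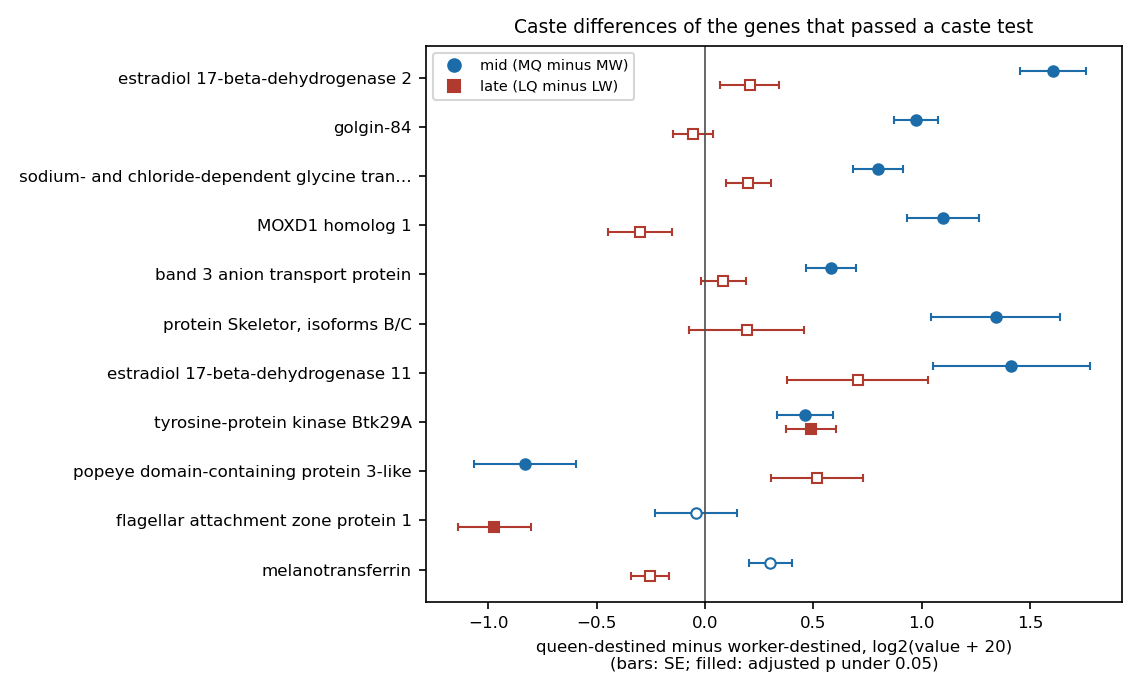
Difference between queen- and worker-destined larvae on the log2(value + 20) scale (horizontal axis) of the 11 genes that passed a caste test, at the mid stage (circles, MQ minus MW) and the late stage (squares, LQ minus LW); bars are standard errors and filled symbols have an adjusted p under 0.05. Most circles lie right of 0 and most squares near it, flagellar attachment zone protein 1 lies left of 0 at late, and Btk29A lies right of 0 at both stages.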

How the data were processed

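Whole-larva mRNA was sequenced by the study on the Illumina platform, and 17 of 20 libraries were used here. The study had left out MQ3 and LQ3 for low read numbers and MW1 for poor clustering with its replicates. The deposited signal values were made by the authors: libraries were resampled to a common size, that of LW1, reads were aligned with PatMaN to Bter_1.0 allowing 1 mismatch, reads matching at several places were kept, and the abundances were corrected for length and quantile-normalised. No read counts per feature are kept in them, so precision rested on the spread between libraries, and p-values measure only the spread between these pooled libraries.

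Product names were read from the study's list of genes higher in EQ, of which part could be read. The members and gene lists were chosen with earlier results of these data known, and the patterns that sort names into groups were corrected once after values had been seen. Caste differences at the mid and late stages and their change were tested with limma 3.58.1 in R 4.3.3 on log2(value + 20), fitting 6 phenotype means to 14817 features in 17 libraries with a mean-variance trend. Benjamini-Hochberg adjustment ran over all 14817 features, and an adjusted p under 0.05 was called. The fit had 11 residual and 2.35 prior degrees of freedom. Data were also simulated with independent noise of 1 spread per feature, without colony effects or a library apart like LW1. On these data the fit found 13.5% of caste differences of 0.5 on the log2 scale at mid and 24.0% at late. For differences of 1 it found 72.5% and 81.0%, and 2.41% to 7.69% of calls were false. Smaller caste differences can therefore go uncalled. Stage differences, which the rule used, and the early caste difference, by which the list was ordered, were described without a test.

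The text gives in full the 12 genes with the largest late difference, up to 10 genes called in each caste comparison and direction, up to 4 further genes of each group, and 3 genes on each side of the limit, with the others named by their late difference only. Replicate numbers were the same in queen- and worker-destined groups but came from different colonies. Alternatives were offsets of 1 and 50, features averaging 100 or more, annotated features only, no trend, weights for each library, blocks for replicate number and colony, median centring, each stage alone and leaving out each library. Of the symbols, 54 of 60 matched RefSeq's iyBomTerr1.2, which was used for neighbouring genes only, and no sequence is shown.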

Additional observations from a re-analysis of the deposited data

Results flagged for a closer look

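A pattern that differed between the castes was marked for a closer look where the change of the caste difference from mid to late stage passed limma's test. It did so for 5 of the 60 genes. Golgin-84 had a change of -1.03, estradiol 17-beta-dehydrogenase 2 of -1.40, MOXD1 homolog 1 of -1.40 and melanotransferrin of -0.56, each with a lower late minus mid difference in queen-destined larvae, and popeye domain-containing protein 3-like had a change of 1.34 in the other direction. For the first 3 the limma adjusted p over all alternatives reached at most 0.0309, 0.0438 and 0.0527. For melanotransferrin it reached 0.158 and for the popeye gene 0.178. Golgin-84, the dehydrogenase and MOXD1 entered the list through high MQ values, so their calls are not independent of the choice of members. Phenotype groups held at most 3 libraries, too few for a search for single outlying values.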

How the results depend on the processing

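Leaving out 1 library at a time gave 4 to 14 called genes at the mid stage (9 with all libraries), 1 to 3 at the late stage (2) and 2 to 7 for the change between stages (5). The mid count was 14 without LW1, 5 without MW2 and 4 without MW3. The late count was 1 without LQ1, LQ2, LW2 or LW3. The change gave 2 without MW3, 7 without MQ2 and 3 without any 1 of EQ1, EQ3, EW1, EW2, EW3, MQ4, MW2, LQ1, LQ2, LQ4 or LW2. Weights for each library gave 17 genes at mid, 6 at late and 12 for the change. Fitting each stage alone gave 1 at mid and 0 at late, with 4 late genes at an unadjusted p under 0.05 in limma. For the change, an offset of 1 gave 3, annotated features only gave 8 and colony as a random block gave 8. The cause of these shifts was not tested. A replicate block gave 5 genes at mid, 2 at late and 5 for the change. Same-numbered libraries of the 2 castes correlated between -0.07 and 0.36 in their deviations and came from different colonies, so the numbers do not pair them. Over the 16 single calls and their alternatives, 333 of 425 values kept direction and call, 92 kept direction only and 0 reversed. The rule kept 47 to 60 of the 60 genes under its alternatives, 47 with worker-destined libraries only and 50 with an offset of 1. Read counts per feature were not used here, so limits from counting could not be given.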
